A study of Arabidopsis thaliana with 42 samples.

Results

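The 30 genes described here encode nucleus-encoded subunits of the photosynthetic electron transport chain of Arabidopsis thaliana, and they were taken by a fixed list of locus identifiers from the 27667 loci counted. The list held 12 photosystem I subunit genes, 10 photosystem II subunit genes, 3 genes of the cytochrome b6f complex and plastocyanin, 3 genes of ferredoxin and its NADP reductase, and 2 genes of the chloroplast ATP synthase. Antenna and rubisco genes were not on the list. All 30 passed the filter on low counts in both library sets.

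Light reactions of the thylakoid membrane move electrons from water, split by photosystem II, through the cytochrome b6f complex and the copper protein plastocyanin to photosystem I, and from there by ferredoxin and ferredoxin-NADP reductase to NADPH. The proton gradient built on the way drives the ATP synthase. Each large complex mixes core subunits encoded in the chloroplast with smaller, mostly peripheral subunits that are encoded in the nucleus, translated in the cytosol and imported. Several of these nuclear subunits come from pairs of duplicated genes.

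RNA had been sequenced from whole 5-day-old seedlings of the Col-0 ecotype, with either the Col-0 genotype or the genotype labelled rh6812. That name points to 3 RNA helicase genes, RH6, RH8 and RH12, whose yeast counterpart Dhh1 works in mRNA turnover. There were 42 libraries in 14 groups, each with 3 replicates. Total and polysome-bound poly(A)+ RNA, with no agent, gave 6 libraries each. rRNA-depleted RNA gave 30 libraries at 0, 15, 30, 60 and 120 min, all labelled with cordycepin, a chain-terminating nucleoside that blocks transcription, the 0 min libraries included. The sources used here do not give the mutant alleles or say whether replicates were grown separately, so a p-value reflects only how these libraries vary, part of which may be technical.

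Library totals ran from 11783437 to 25864031 counts in total RNA, from 4611462 to 30654342 in polysome-bound RNA and from 11463206 to 22251739 in rRNA-depleted RNA. RH8 stood at 32.6 to 32.9 CPM (counts scaled to a common library size with TMM factors) in the Col-0 total RNA libraries and at 2.19 to 3.63 in those labelled rh6812. RH12 was lower as well, but RH6 went against the label, at 52.3 to 56.0 CPM in Col-0 and 126 to 136 in rh6812, so rh6812 below always means the libraries labelled so. Summed root markers (11 genes, 10 past the filter in the poly(A)+ set) stood at 1215 to 1520 CPM in Col-0 total RNA and 2233 to 2328 in rh6812, whereas in polysome-bound RNA they stood at 972 to 1059 and 809 to 853. PYK10, a root beta-glucosidase gene, carried most of these sums, and without it the other 9 genes summed to 251 to 352 CPM in Col-0 and 238 to 282 in rh6812 in total RNA and to 48.6 to 55.6 and 17.6 to 22.1 in polysome-bound RNA. In total RNA 6 of the 10 tested root markers were higher and 3 lower. Summed epidermis markers (4 genes) stood at 436 to 546 and 380 to 410 CPM in total RNA and at 479 to 548 and 184 to 214 in polysome-bound RNA, and the 3 of 5 seed markers that passed the filter summed to at most 20.2 CPM in any poly(A)+ library. Whole seedlings were sampled, so fewer green cells and less of a transcript per green cell cannot be told apart, and the part of the marker shifts in the results below was not tested. The third rh6812 library at 120 min was the lowest of its group for all 30 members.

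Among the 7 duplicated pairs, the coding sequences were 75.0% (PETE1 and PETE2, the plastocyanins) to 88.0% (PSAD1 and PSAD2) identical, and the longest run of identical bases between the transcripts of a pair was 17 to 35 bases. Where sequences are this alike, some reads may be assigned to the wrong copy. By the TAIR10.1 annotation 10 members overlap another gene, 9 of them a gene on the opposite strand (PSAE1, PSAE2, PSAG, PSAH1, PSAH2, PSAN, PSBP1, PSBR and LFNR1). No source used here gives the strand setting of the counting, so within the shared stretch reads from these members and from their partners cannot be told apart. How long these stretches are was not measured. PSAD2 and PSBP1 overlap a gene on their own strand.

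The upstream sequences of the plastocyanin pair and of the PSBQ pair are printed because the plastocyanins moved apart between genotypes in poly(A)+ RNA, whereas both PSBQ genes fell. Each run ends at the base before the annotated gene start, is written 5′ to 3′ on the gene's strand, and stops short of any neighbouring gene. They are read from TAIR10.1 of RefSeq at chr1:28554931-28555033 (minus strand), chr1:7043393-7043627 (minus strand), chr4:11334169-11334351 (plus strand) and chr4:2673244-2673493 (minus strand). Capitals mark matches, on either strand, to the G-box with letters CACGTG, to the I-box with letters GATAAG, to the CCAAT-type motif with letters CCAATC or to the TATA motif with letters TATAAA, and no marked match overlaps another.
PETE1: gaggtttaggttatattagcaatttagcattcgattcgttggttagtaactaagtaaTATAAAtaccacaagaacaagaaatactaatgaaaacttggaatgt
PETE2: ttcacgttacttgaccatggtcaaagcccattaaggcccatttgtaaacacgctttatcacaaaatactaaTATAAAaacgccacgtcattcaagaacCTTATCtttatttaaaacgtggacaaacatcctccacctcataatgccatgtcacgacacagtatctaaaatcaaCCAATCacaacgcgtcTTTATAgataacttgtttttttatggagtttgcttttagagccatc
PSBQ1: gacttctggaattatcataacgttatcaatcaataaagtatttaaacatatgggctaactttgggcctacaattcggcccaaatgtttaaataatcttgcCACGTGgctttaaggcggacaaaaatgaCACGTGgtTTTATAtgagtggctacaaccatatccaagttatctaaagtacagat
PSBQ2: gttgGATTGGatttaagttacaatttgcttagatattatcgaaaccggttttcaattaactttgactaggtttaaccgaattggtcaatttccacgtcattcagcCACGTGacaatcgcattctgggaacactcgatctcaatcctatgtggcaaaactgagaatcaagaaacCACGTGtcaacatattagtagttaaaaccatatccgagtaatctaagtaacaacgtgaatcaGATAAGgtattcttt
The PSBQ1 and PSBQ2 windows each held a pair of G-boxes, which are core sites of light-responsive promoters, and neither plastocyanin window held one. In the 250 bases before each gene start, the G-box was found for 16.7% of the members (PSAE2, PSAH2, PSBQ1, PSBQ2 and ATPD) and for 6.49% of the 27443 protein-coding genes of the table. The I-box was found for 26.7% of members and 12.3% of all, the CCAAT-type motif for 13.3% and 10.2%, and the TATA motif for 15 of the 30 members and 47.3% of all. The evening element, whose letters are AAAATATCT, was found for 3.33% and 2.36%. These 250-base windows run into a neighbouring gene where one lies close. A match is a description of the letters and not a bound site, and no link between motifs and expression was tested. The contrast between the 2 printed pairs did not hold in rRNA-depleted RNA. There the log2 ratio of PETE2 to PETE1 differed by 0.06 between genotypes and that of PSBQ2 to PSBQ1 by 0.24. PSAE2 held a G-box and PSAE1 did not, although both fell in poly(A)+ RNA.

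Per kilobase of exon, the Col-0 libraries at 0 min ranked PSBR, which encodes a photosystem II subunit near the oxygen-evolving side, highest at 1535 ± 254 CPM per kilobase (SD, n = 3). PSBO1, which encodes the manganese-stabilising protein, followed at 1305 ± 117, and PETE2, the major plastocyanin gene, at 1192 ± 117. Their replicates overlap, so the order of these levels is not fixed. PETE1, the minor plastocyanin gene, was the lowest member at 44.7 ± 3.28 CPM per kilobase and stood apart from LFNR2, the next lowest, at 139 ± 33.3. In the 0 min libraries labelled rh6812, PSBR again ranked highest and FD2, the main leaf ferredoxin gene, moved from rank 12 to rank 2. FD2 went from 744 ± 132 to 1043 ± 63.6 CPM per kilobase. In rh6812 it overlapped PSBX at rank 3 (982 ± 65.3), so its rank is not fixed either.

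In total poly(A)+ RNA 8 of the 12 photosystem I genes were lower in rh6812, and the other 4 (PSAD1, PSAG, PSAH1 and PSAL) were not called. Over all 30 members 15 were lower and 6 were higher by edgeR's quasi-likelihood test with Benjamini-Hochberg adjustment at 0.05. Among all genes tested 32.4% were lower and 32.2% were higher. The median log2 fold change was −0.23 for the members and −0.03 for all genes, and 20 of the 30 members had replicates that did not overlap between genotypes, close to the share of all genes tested, 68.3%.

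PSAD2 (AT1G03130, TAIR10.1 chr1:753307-754262), which encodes a stromal docking subunit for ferredoxin, stood at 1223, 911 and 1341 CPM in Col-0 and at 364, 378 and 423 in rh6812. Every rh6812 library lay below every Col-0 library, and the log2 fold change was −1.58 ± 0.12 (SE, n = 3 against 3, adjusted p = 3.5e-12 by edgeR). Its paralogue PSAD1 (AT4G02770) stood at 2929, 2219 and 3202 against 2582, 2623 and 2816 CPM, with groups that overlap. PSAN, which encodes the lumenal subunit that helps dock plastocyanin, stood at 3356, 3148 and 3386 CPM in Col-0 and 1603, 1930 and 1764 in rh6812. The groups were well apart, at −0.90 ± 0.09 on the log2 scale (adjusted p = 9.5e-10 by edgeR). PSAH2, a gene for the subunit where the mobile antenna docks, stood at 617, 589 and 613 against 354, 384 and 325 CPM, again without overlap. Its log2 fold change was −0.77 ± 0.09 (adjusted p = 6.2e-09 by edgeR), whereas PSAH1, at 653, 524 and 679 against 540, 554 and 588 CPM, was not called. PSAE1, for a stromal subunit, stood at 1118, 953 and 1125 against 796, 974 and 788 CPM, and PSAE2 at 504, 480 and 460 against 341, 458 and 343. PSAE1 overlapped by 1 library and PSAE2 did not overlap. The remaining called genes of the complex, PSAO, PSAK, PSAF, PSAE2 and PSAE1, fell by 0.55 to 0.32 on the log2 scale. The genes PSAG and PSAL, for peripheral subunits on opposite sides of the complex, had log2 values of 0.08 and −0.01.

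Photosystem II genes went both ways. PSBP1, PSBQ1, PSBQ2 and PSBO1, for the proteins of the oxygen-evolving complex, fell by 0.60, 0.31, 0.38 and 0.31 on the log2 scale. PSBQ1 stood at 1207, 1039 and 1253 CPM in Col-0 and 838, 982 and 995 in rh6812, and PSBQ2 at 1379, 1257 and 1295 against 930, 1177 and 918. Neither pair of groups overlaps. PSBO2, the second gene of the manganese-stabilising protein, stood at 1658, 1421 and 1811 CPM in Col-0 and 2135, 2508 and 2369 in rh6812. All 3 of its rh6812 libraries lay above the Col-0 libraries, with a log2 fold change of 0.52 ± 0.10 (adjusted p = 2.3e-05 by edgeR). PSBO1, by contrast, stood at 6250, 5163 and 6389 against 4509, 5118 and 4701 CPM. PSBS, which encodes the sensor of lumen pH that switches on heat dissipation and is not a core subunit, stood at 707, 633 and 768 CPM in Col-0 and 1249, 1299 and 1315 in rh6812. It rose by 0.88 ± 0.09 on the log2 scale (adjusted p = 7.4e-10 by edgeR), without overlap. PSBY, for a small membrane subunit, rose by 0.37 ± 0.09 and PSBR, PSBW and PSBX were not called, with log2 values of 0.15, −0.01 and −0.08.

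Between and beyond the photosystems the electron carriers and the reductases went both ways. FD2 (AT1G60950, TAIR10.1 chr1:22444307-22445291) stood at 1932, 1735 and 2214 CPM in Col-0 and 4387, 4717 and 4530 in rh6812. It was the member with the largest rise, at 1.21 ± 0.10 on the log2 scale (adjusted p = 4.8e-12 by edgeR), and its groups were far apart. LFNR2 (AT1G20020, TAIR10.1 chr1:6942625-6945091), one of the leaf ferredoxin-NADP reductase genes, stood at 532, 612 and 465 against 244, 274 and 224 CPM, a log2 fold change of −1.12 ± 0.10 (adjusted p = 1.8e-11). The sister gene LFNR1 fell less, from 707, 636 and 709 to 534, 540 and 520 CPM, or by 0.36 on the log2 scale. PETE1 stood at 223, 187 and 246 CPM in Col-0 and 117, 128 and 132 in rh6812, a log2 fold change of −0.80 ± 0.09 (adjusted p = 1.2e-08 by edgeR). PETE2 stood at 3863, 3462 and 4076 against 4317, 4628 and 4330 CPM. Its groups do not overlap, and its rise of 0.22 ± 0.09 was called at an adjusted p of 0.039 by edgeR but was lost in 13 of 17 alternative settings (adjusted p 0.0075 to 0.36). PETC, the Rieske iron-sulphur protein gene, and ATPC1, the ATP synthase gamma subunit gene, were not called, at −0.11 and 0.07. ATPD, the delta subunit gene, rose by 0.30 ± 0.09 and was lost when libraries were scaled by size alone (adjusted p = 0.067).

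**Figure D1:**
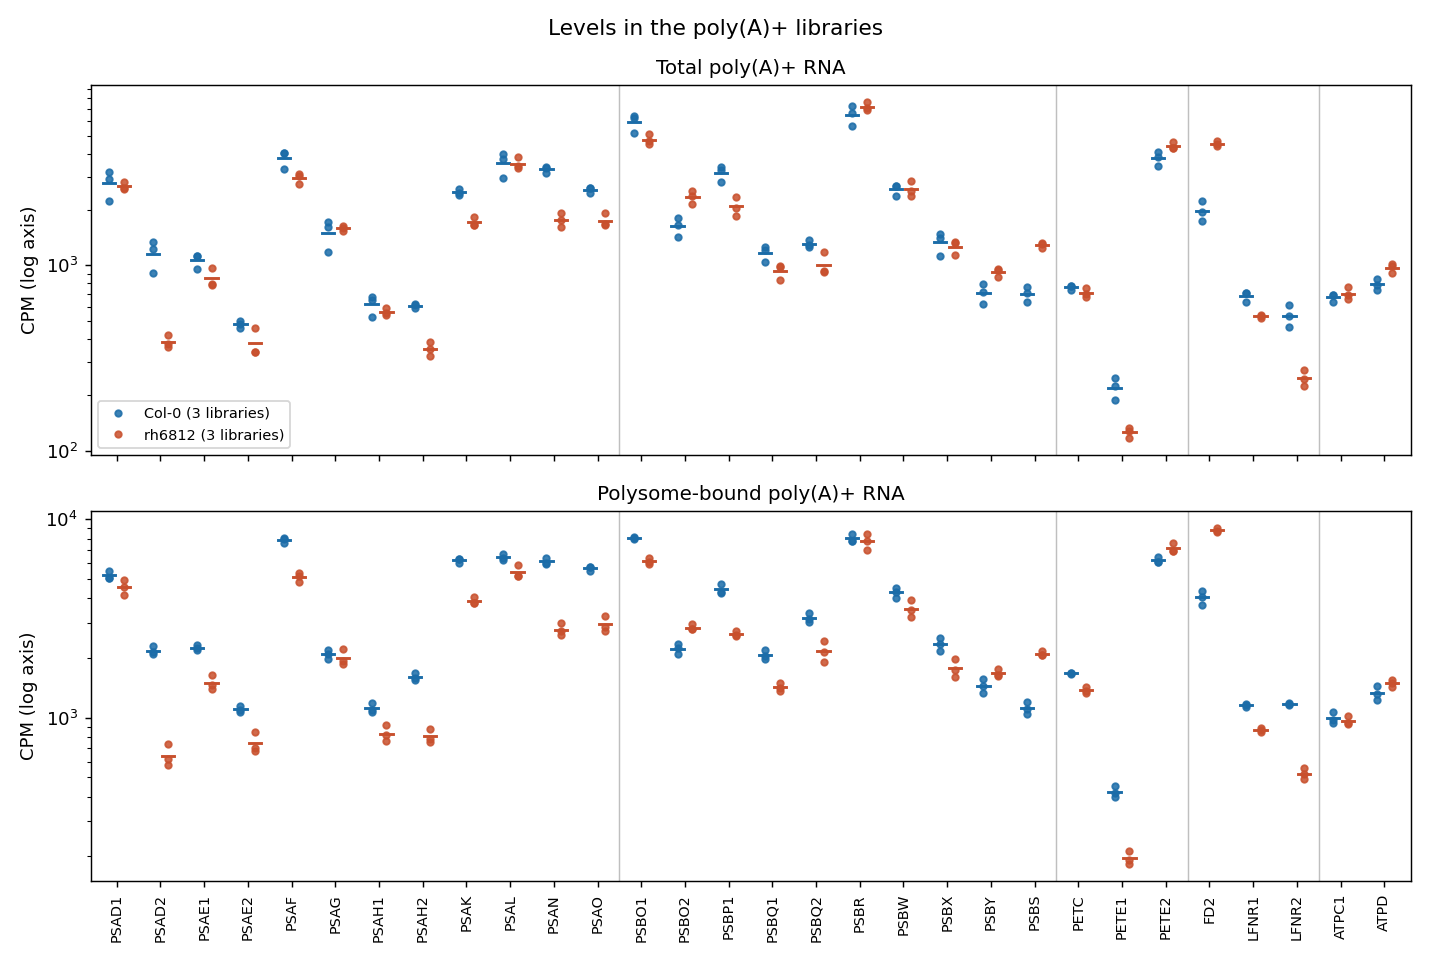
Levels of the 30 genes in CPM, scaled by TMM factors, on a log axis, in total (upper panel) and polysome-bound (lower panel) poly(A)+ RNA; points are single libraries, short bars are group means (n = 3), and grey lines separate photosystem I, photosystem II, cytochrome b6f with plastocyanin, ferredoxin with its reductase, and ATP synthase. PSAD2, PSAN, PSAH2, PETE1 and LFNR2 lie lower in rh6812 in both panels, and FD2, PSBS and PSBO2 lie higher.

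In polysome-bound RNA the photosystem I genes were again lower in rh6812. Of the 30 members 20 were lower in rh6812 and 4 were higher, where 33.3% of all genes tested were lower and 30.2% were higher. The member median was −0.41 on the log2 scale and the median of all genes −0.05. All 15 members that fell in total RNA also fell here, and 4 (PSBO2, PSBS, PSBY and FD2) were higher in both. Both comparisons were made in 1 fit of the same 12 libraries, from different RNA fractions. The share of all genes called the same way in both was not computed. Of the photosystem I genes 10 fell, with a median of −0.61. PSAD2 stood at 2139, 2100 and 2297 CPM in Col-0 polysomes and 621, 735 and 575 in rh6812 polysomes, a log2 fold change of −1.76 ± 0.12 (adjusted p = 3.7e-13 by edgeR). PSAO, a small subunit gene, stood at 5728, 5489 and 5746 against 2876, 3248 and 2741 CPM, without overlap. Its log2 fold change was −0.94 ± 0.09 (adjusted p = 4.1e-10 by edgeR), where total RNA gave −0.55.

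PSAN (5987, 6046 and 6360 against 2734, 3013 and 2600 CPM) and LFNR2 (1155, 1172 and 1181 against 555, 517 and 492 CPM) were lower with no overlap, at −1.14 and −1.16 on the log2 scale. PETE1 stood at 397, 417 and 451 CPM in Col-0 and 192, 213 and 182 in rh6812, or −1.11 ± 0.10. Its paralogue PETE2 did not fall. PETE2 stood at 6125, 6077 and 6493 CPM in Col-0 and 6890, 7560 and 6955 in rh6812, without overlap, and was not called. FD2 was higher, at 3719, 4377 and 4056 against 8675, 9056 and 8715 CPM. Its rise of 1.12 ± 0.10 (adjusted p = 2.4e-11 by edgeR) left the groups far apart. PSBS stood at 1042, 1110 and 1202 against 2176, 2070 and 2062 CPM, a rise of 0.91 ± 0.09, and PSBO2 at 2083, 2242 and 2341 against 2802, 2951 and 2786, a rise of 0.36 ± 0.10. PSAD1, the paralogue of PSAD2, stood at 5079, 5056 and 5509 against 4562, 4954 and 4174 CPM, and was not called (−0.19 ± 0.11). The calls of PSAL, PSBW and PSBY were the least settled, being lost in 7, 4 and 8 of 17 alternative settings with adjusted p up to 0.18, 0.15 and 0.21 by edgeR. Summed over the members, the share of all counts was 9.86% ± 0.135 (SD, n = 3) in Col-0 polysomes and 7.66% ± 0.329 in rh6812 polysomes. In total RNA it was 6.55% ± 0.220 and 5.61% ± 0.325.

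Within each genotype the members were more abundant in polysome-bound than in total RNA, relative to other transcripts. In Col-0 all 30 were higher in polysomes and none lower (30.7% and 27.0% of all genes tested), from 1.24-fold (PSBR) to 2.64-fold (PSAH2), with a median log2 value of 0.87 against 0.04 for all genes. PSBR was lost with library size alone (adjusted p = 0.33) and without the first Col-0 polysome library. In rh6812 29 were higher and none lower (26.0% and 27.2% of all genes tested), with a median of 0.70 against −0.01, and PSBR, at 0.10 ± 0.10, was not called. The rh6812 calls of PSAG, PSBO2 and PSBP1 were lost with library size alone (adjusted p = 0.080, 0.20 and 0.056 by edgeR). The photosystem I median was 0.98 in Col-0 and 0.77 in rh6812, and that of photosystem II was 0.70 and 0.47. PSAH2 and PSAK, a subunit gene next to the photosystem I antenna, were highest in both genotypes, PSAK at 1.32 in Col-0 and each at 1.18 in rh6812. PSBQ2 reached 1.28 ± 0.10 in Col-0 and PSBQ1 0.83 ± 0.09, PSBO1 and PSBO2 0.44 and 0.45, and these differences within pairs were not tested. The rise was not particular to the members. In Col-0, 19 of 20 genes of the NDH complex and cyclic electron flow were higher in polysomes and 0 lower (median 0.96). Of 22 for photosystem assembly and repair 21 were higher and 1 lower (0.75), and all 5 rubisco genes were higher (0.71). Of 21 antenna genes 13 were higher and 5 lower (0.37). Beside these values, all 10 tested root markers were lower in polysomes in both genotypes, with medians of −2.96 in Col-0 and −4.36 in rh6812, and their part in the members' polysome values was not tested.

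**Figure D2:**
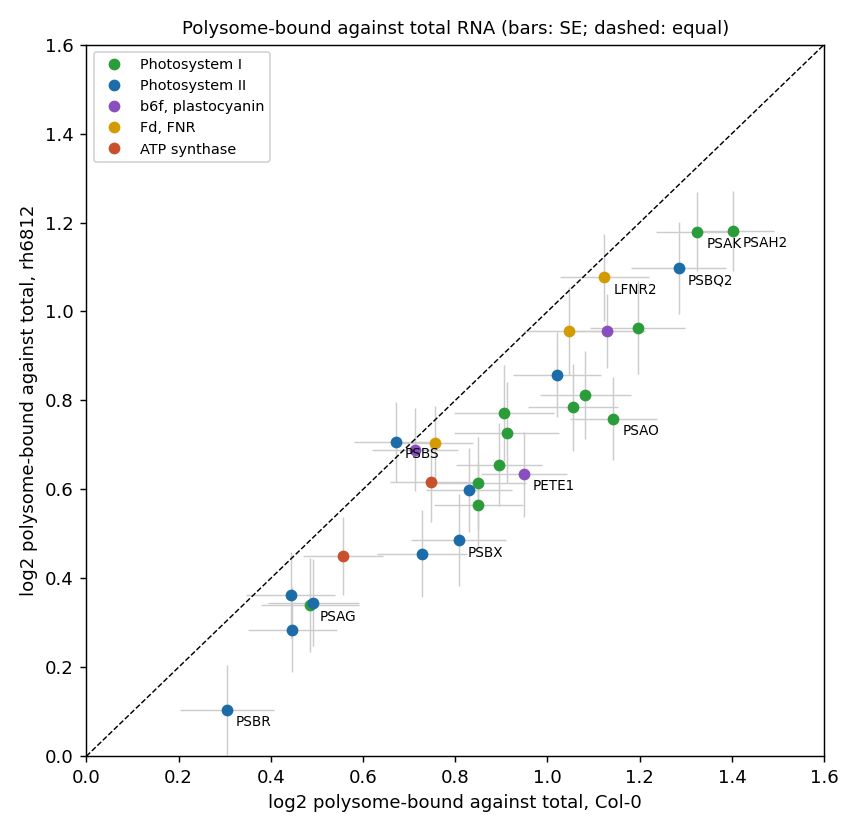
Log2 fold change of polysome-bound against total poly(A)+ RNA in Col-0 (horizontal) and in rh6812 (vertical), 1 point per gene, coloured by complex, with standard errors from the edgeR fit of 3 libraries per group; the dashed line marks equal values. All 30 points lie above 0 on both axes and 29 lie below the dashed line, PSBS being the exception.

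The difference of these polysome values between genotypes, tested as an interaction, was not called for any of the 30 members (3.30% of all genes were called higher and 6.45% lower). By edgeR 4 members had an unadjusted p under 0.05, all negative, and DESeq2 called 1 member lower. The values leaned 1 way, with 29 of 30 negative and a median of −0.18, against −0.05 for all genes. Without the first or the third rh6812 polysome library the median was −0.08, with 0.00 and 0.01 for all genes. PSAO had the lowest value, −0.38 ± 0.13 (adjusted p = 0.061 by edgeR), then PSBX at −0.32 ± 0.15 and PETE1 at −0.31 ± 0.13. PSBS, at 0.04 ± 0.13, was the sole positive one. All 30 values use the same 12 libraries, so their common sign is not 30 separate observations. Of the tested root markers 4 of 10 were called lower, with a median of −1.11, and of the epidermis markers 3 of 4, with a median of −0.68. Their part in the members' values was not tested.

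**Figure D3:**
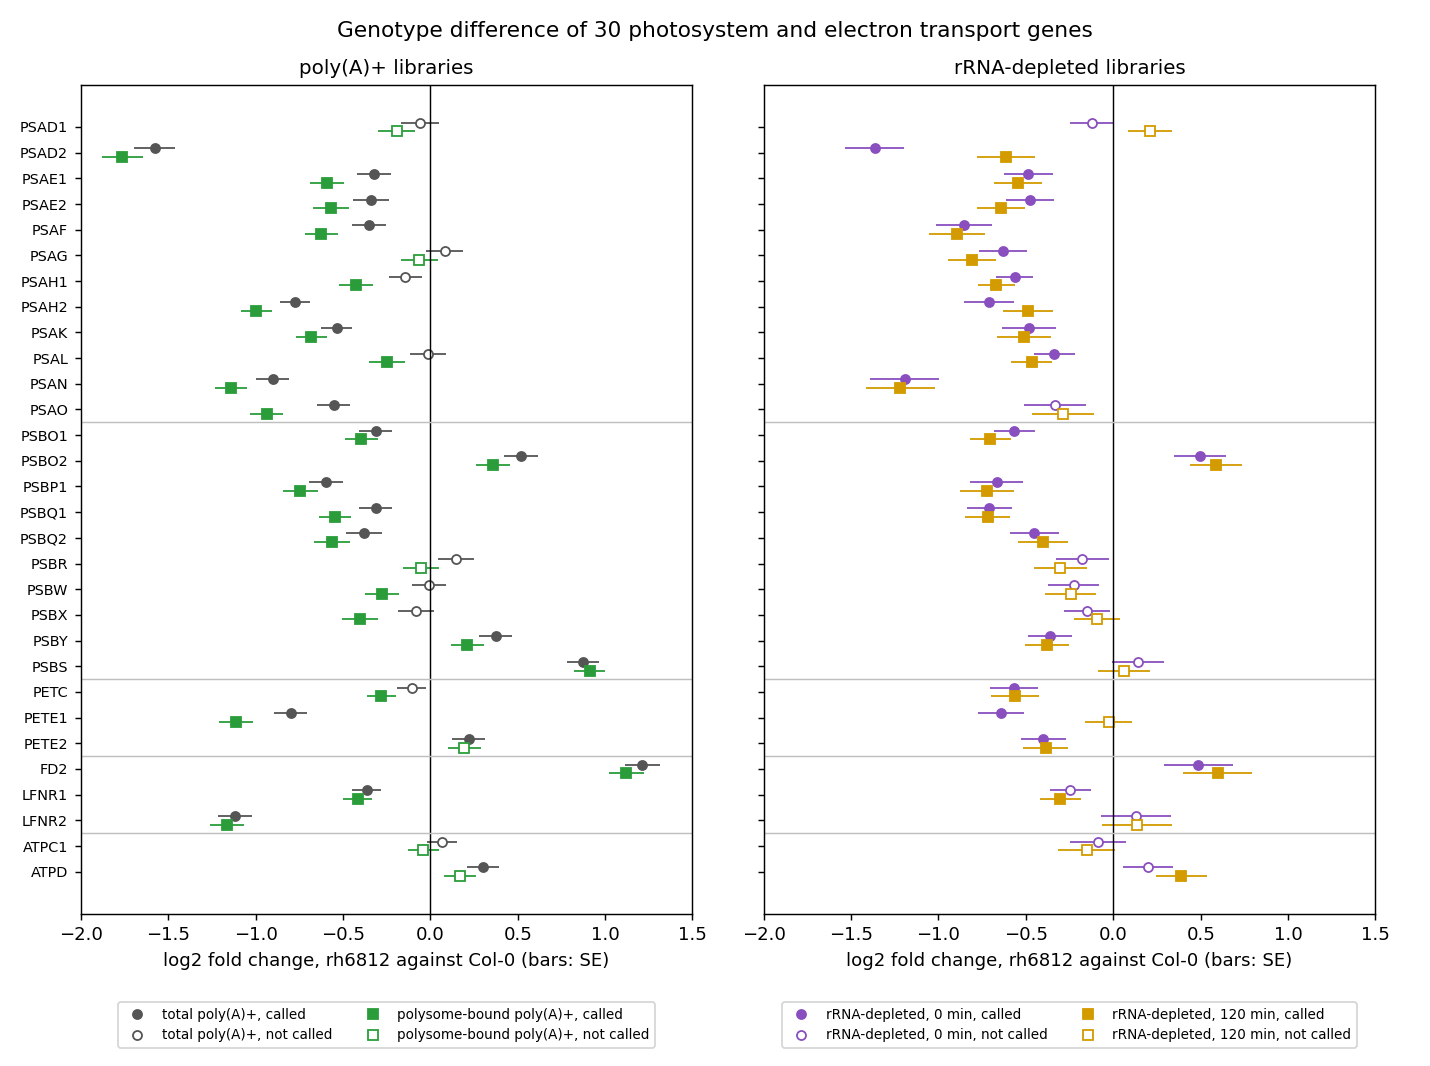
Log2 fold change of rh6812 against Col-0 for the 30 genes in the poly(A)+ libraries (left, total and polysome-bound) and in the rRNA-depleted libraries (right, 0 and 120 min), with standard errors from the edgeR fits (3 libraries per group); filled symbols passed an adjusted p of 0.05. PSAD2, PSAN and PSBP1 are lower and PSBO2 and FD2 higher in all 4 comparisons, whereas LFNR2, PSBS, PSBY and PETE2 sit at different places in the left and right panels.

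The rRNA-depleted libraries gave a second view of the genotypes, made with another kit. At 0 min 18 members were lower in rh6812 and 2 (PSBO2 and FD2) were higher, where 24.0% of all genes tested were lower and 24.4% were higher. The median was −0.43 against −0.02 for all genes. Of the 15 genes lower in both poly(A)+ fractions, 12 were lower here as well. Photosystem I again had 10 of 12 genes lower, and all 3 genes of cytochrome b6f and plastocyanin were. When the first Col-0 replicate was left out, the count of lower members was 11 in place of 18. At 120 min 18 were lower and 3 higher (26.8% and 29.8% of all genes tested), and 17 members were lower at both times. Shares of all genes were not computed for these joint counts. With libraries scaled by size alone, which moved the median of all genes at 120 min from 0.03 to 0.42, 8 members were lower and 8 higher there, where 11.6% of all genes tested were lower and 47.0% higher.

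At 0 min PSAD2 stood at 304, 292 and 234 CPM in Col-0 and 114, 107 and 102 in rh6812, a log2 fold change of −1.37 ± 0.17 (adjusted p = 2.6e-07 by edgeR). PSAN stood at 794, 597 and 597 against 316, 286 and 268 CPM, at −1.19 ± 0.20 (adjusted p = 1.9e-05). PSAF, for a subunit that also docks plastocyanin, stood at 1099, 827 and 872 against 589, 489 and 470 CPM, at −0.85 ± 0.16 (adjusted p = 8.3e-05 by edgeR). None of these groups overlap. PSBO2 stood at 488, 409 and 363 CPM in Col-0 and 587, 568 and 625 in rh6812, also without overlap, and rose by 0.50 ± 0.15 (adjusted p = 0.0072 by edgeR). FD2 stood at 869, 719 and 611 against 1042, 1081 and 958 CPM. Its rise of 0.49 ± 0.20 had an adjusted p of 0.042 by edgeR and was lost when any of 4 replicates was left out (adjusted p up to 0.15).

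At 120 min PSAN stood at 831, 737 and 596 CPM in Col-0 and 371, 371 and 187 in rh6812, a log2 fold change of −1.22 ± 0.20 (adjusted p = 1e-05 by edgeR). PSAF stood at 1226, 1147 and 985 against 698, 670 and 443 CPM (−0.89 ± 0.16), and PSAG at 754, 791 and 649 against 466, 459 and 330 CPM (−0.81 ± 0.14). These 3 photosystem I genes did not overlap between genotypes. FD2 stood at 861, 883 and 681 CPM in Col-0 and 1348, 1521 and 799 in rh6812, with overlap through the third rh6812 library. Its rise of 0.60 ± 0.20 was lost in 3 of 12 alternative settings. PSBO2, at 536, 552 and 412 against 810, 858 and 588 CPM, did not overlap and rose by 0.59 ± 0.15. ATPD, at 311, 305 and 258 against 443, 410 and 291 CPM, overlapped, and its rise of 0.39 ± 0.14 was lost in 4 of 12 settings.

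Because some members did not keep their place between the library types, the difference between the genotype effect at 0 min in rRNA-depleted RNA and that in total poly(A)+ RNA was tested in a fit of those 12 libraries, a comparison added after the data had been seen. It called 8 members lower and 1 higher, where 16.9% of all genes tested were lower and 13.8% higher. The member median was −0.18, and −0.10 without the first Col-0 library at 0 min or −0.12 without the second rh6812 total library. LFNR2 moved up by 1.22 ± 0.22 (adjusted p = 0.00069 by edgeR): at 0 min it stood at 318, 196 and 250 CPM in Col-0 and 304, 262 and 270 in rh6812, with overlap, against the clear fall in poly(A)+ RNA. PSBS moved down by 0.76 on the log2 scale, its rRNA-depleted values at 469, 380 and 340 against 471, 396 and 445 CPM overlapping. PSBY, which rose in poly(A)+ RNA, stood at 255, 236 and 218 against 197, 173 and 181 CPM at 0 min, a fall of 0.36. PETE2 likewise stood at 1785, 1542 and 1491 against 1187, 1156 and 1309 CPM, a fall of 0.40. The 0 min calls of PSBY and PETE2 were each lost in 3 of 12 alternative settings, library size alone and the left-out first Col-0 replicate among them, with adjusted p up to 0.37 and 0.12 by edgeR. PSAG, FD2, PETC, PSAF and PSAH1 were the other 5 called lower, and PSAF, PSAH1 and PETC lost the call in 9, 7 and 5 of 17 alternative settings. Poly(A) selection, kit, the cordycepin label and the sampling of seedlings differ together between these sets and cannot be told apart.

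Paralogue ratios taken within each library need no scaling between libraries. The log2 ratio of the second to the first gene of each pair, on CPM with 1 added, was compared between genotypes by an exact two-sided test that permutes genotype labels within each RNA fraction (12 poly(A)+ libraries, smallest p 0.005) or within each time (30 rRNA-depleted libraries, smallest p 6.25e-07). Adjustment was over 14 tests. PSAD2 took 29.5%, 29.1% and 29.5% of the PSAD counts in Col-0 total RNA and 12.4%, 12.6% and 13.1% in rh6812. In rRNA-depleted RNA at 0 min it took 37.3%, 37.3% and 34.2% against 20.7%, 19.2% and 18.4%. No library of one genotype reached the other, and the mean log2 ratio was lower by 1.54 in poly(A)+ RNA (permutation, adjusted p = 0.00778) and by 1.13 in rRNA-depleted RNA (permutation, adjusted p = 4.38e-06).

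PSBO2 took 21.0%, 21.6% and 22.1% of the PSBO counts in Col-0 total RNA and 32.1%, 32.9% and 33.5% in rh6812, and at 0 min 18.4%, 18.4% and 15.9% against 29.4%, 31.0% and 32.2%. The log2 ratio rose by 0.79 in poly(A)+ RNA and by 1.16 in rRNA-depleted RNA (permutation, adjusted p = 0.00778 and 4.38e-06). These are the pairs that shifted the same way in both library types. PETE2 over PETE1 rose by 1.16 in poly(A)+ RNA (permutation, adjusted p = 0.00778), PETE2 going from 94.6% ± 0.285 (SD, n = 3) to 97.2% ± 0.179 of the pair in total RNA, but over the cordycepin course the difference was 0.06 (permutation, adjusted p = 0.563). PSAH2 over PSAH1 moved by −0.60 (permutation, adjusted p = 0.00778) and by −0.05 (permutation, adjusted p = 0.521). LFNR2 over LFNR1 changed sign between the library types, at −0.75 (permutation, adjusted p = 0.00778) in poly(A)+ RNA and 0.42 (permutation, adjusted p = 5.83e-06) in rRNA-depleted RNA. PSAE2 over PSAE1 differed by −0.0041 in poly(A)+ RNA and by −0.02 in rRNA-depleted RNA (permutation, adjusted p = 0.93 and 0.662). The tests over time treat libraries of 1 replicate number as separate, although those of Col-0 deviated together and those of rh6812 mostly did. All p-values of these ratios in rRNA-depleted RNA are therefore likely too small, with only 3 replicate numbers per genotype behind them. The poly(A)+ tests likewise treat total and polysome-bound libraries of 1 replicate number as separate. The sources used here do not say whether these came from the same seedlings, and if so those p-values are too small as well. PSBQ2 over PSBQ1 differed by −0.05 in poly(A)+ RNA (permutation, adjusted p = 0.607) and rose by 0.24 in rRNA-depleted RNA (permutation, adjusted p = 4.38e-05).

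**Figure D4:**
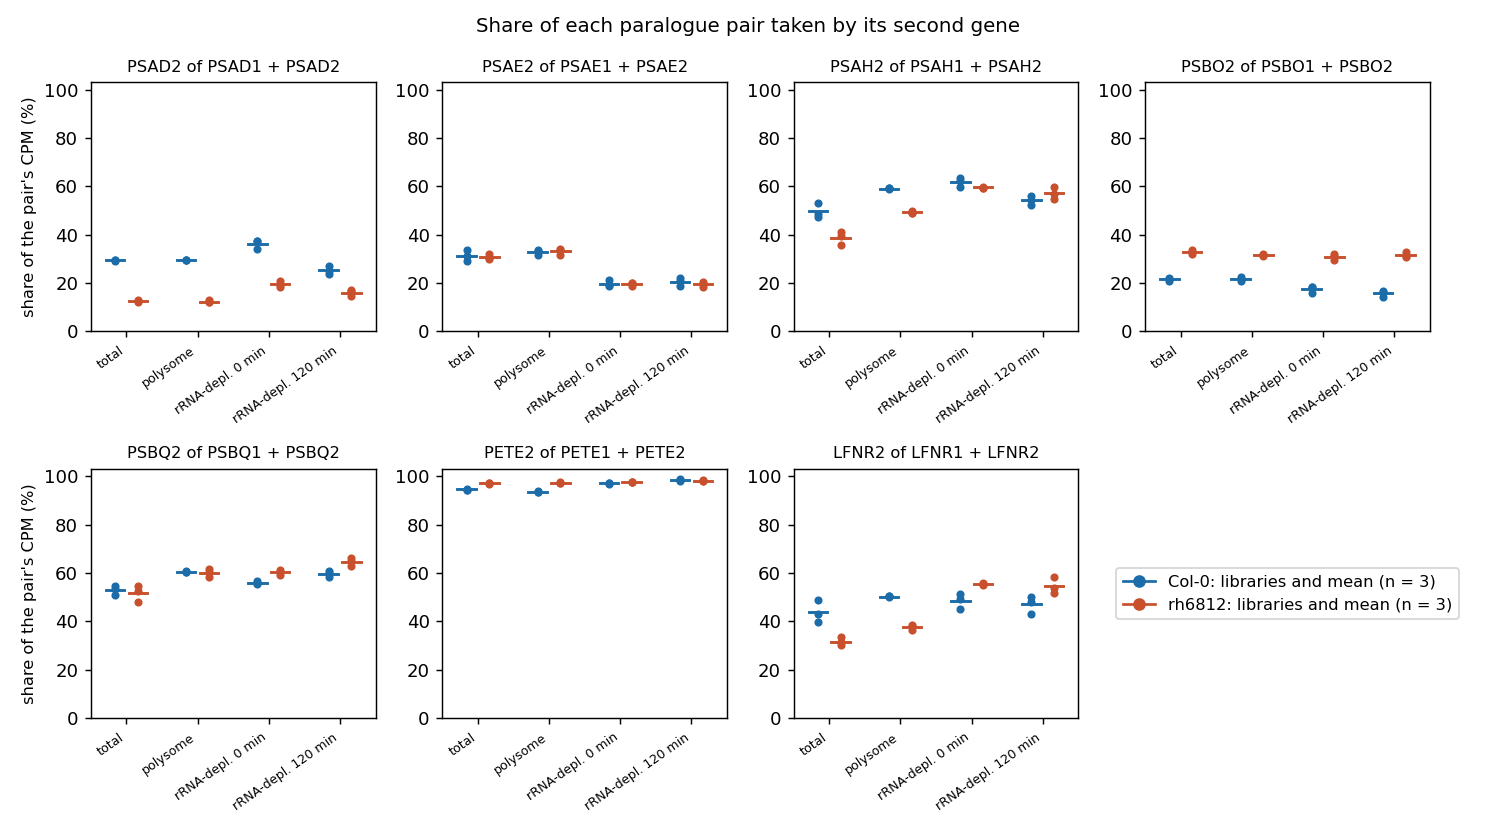
Share of each pair's CPM taken by its second gene, in percent, in total and polysome-bound poly(A)+ RNA and in rRNA-depleted RNA at 0 and 120 min; points are single libraries and bars are means (n = 3). The PSAD2 and PSBO2 shares are apart between genotypes in every panel position, PSAE2 overlaps throughout, and LFNR2 is lower in rh6812 in poly(A)+ RNA and higher in rRNA-depleted RNA.

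Along the cordycepin course more members had positive than negative slopes. A slope here is the change of log2 CPM per hour after TMM scaling, so 0 is the course of a typical transcript and not a constant amount. In Col-0 12 members had a positive slope and 2 a negative one (23.4% and 27.3% of all genes tested), with a member median of 0.13 and a median of all genes of −0.01. With the replicate number as a block 19 were positive. Scaled by library size alone, which moved the median of all genes to −0.19, no member was positive and 8 were negative (6.39% and 46.4% of all genes tested), and with times up to 60 min alone none was positive. PSBR, PSAE2 and PSAH1 had the steepest called positive slopes, at 0.23 ± 0.06, 0.22 ± 0.05 and 0.20 ± 0.04 per hour (adjusted p = 0.0016, 0.0011 and 0.00025 by edgeR), which the scaling by library size alone brought to 0.06, 0.04 and 0.02.

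The negative pair was PSAD2 and PETE1. PSAD2 fell in Col-0 from 304, 292 and 234 CPM at 0 min to 154, 201 and 127 at 120 min, a slope of −0.41 ± 0.07 per hour (adjusted p = 1.8e-05 by edgeR). The groups at the ends of the course do not overlap. In rh6812 it stood at 114, 107 and 102 CPM and later at 113, 125 and 77.3, a slope of 0.00 ± 0.07. PETE1 fell in Col-0 from 48.3, 49.3 and 42.9 to 26.0, 29.0 and 33.0 CPM, a slope of −0.37 ± 0.06 per hour (adjusted p = 2.8e-06 by edgeR), again without overlap. In rh6812 it stood at 29.0, 28.6 and 32.4 CPM and then at 29.6, 30.8 and 26.3, a slope of −0.03 ± 0.06. Their paralogues did not share this course, the Col-0 slopes of PSAD1 and PETE2 being −0.03 ± 0.05 and 0.15 ± 0.05. By 120 min the PETE1 levels of the genotypes overlapped, whereas those of PSAD2 did not.

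In the libraries labelled rh6812, 8 members had a positive slope and none a negative one (10.1% and 11.6% of all genes tested), LFNR1, PETC, PSAH1 and PSBO1 among them at 0.14 to 0.17 per hour, and the median was 0.12. That median was 0.05 without the second rh6812 replicate, 0.21 without the third and 0.02 with library size alone. Of negative slopes edgeR found none below an unadjusted p of 0.05 and DESeq2 called none. Left out one at a time, replicates 1 and 2 of rh6812 took the positive count to 0 and replicate 3 took it to 20, this being the replicate whose 120 min library was the lowest. With the replicate block 13 members were positive, and with library size alone none was. The slope itself differed between genotypes for PSAD2 (0.41 ± 0.10 per hour, adjusted p = 0.0046) and PETE1 (0.34 ± 0.08, adjusted p = 0.0033) by edgeR, both higher in rh6812 (9.29% of all genes were higher and 4.56% lower). For PSAD2 the adjusted p was 0.063 without the first Col-0 replicate, 0.051 without the second rh6812 replicate and 0.30 with times up to 60 min only. For PETE1 it was 0.055 without the first Col-0 replicate, 0.053 without the first rh6812 replicate and 0.30 up to 60 min.

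**Figure D5:**
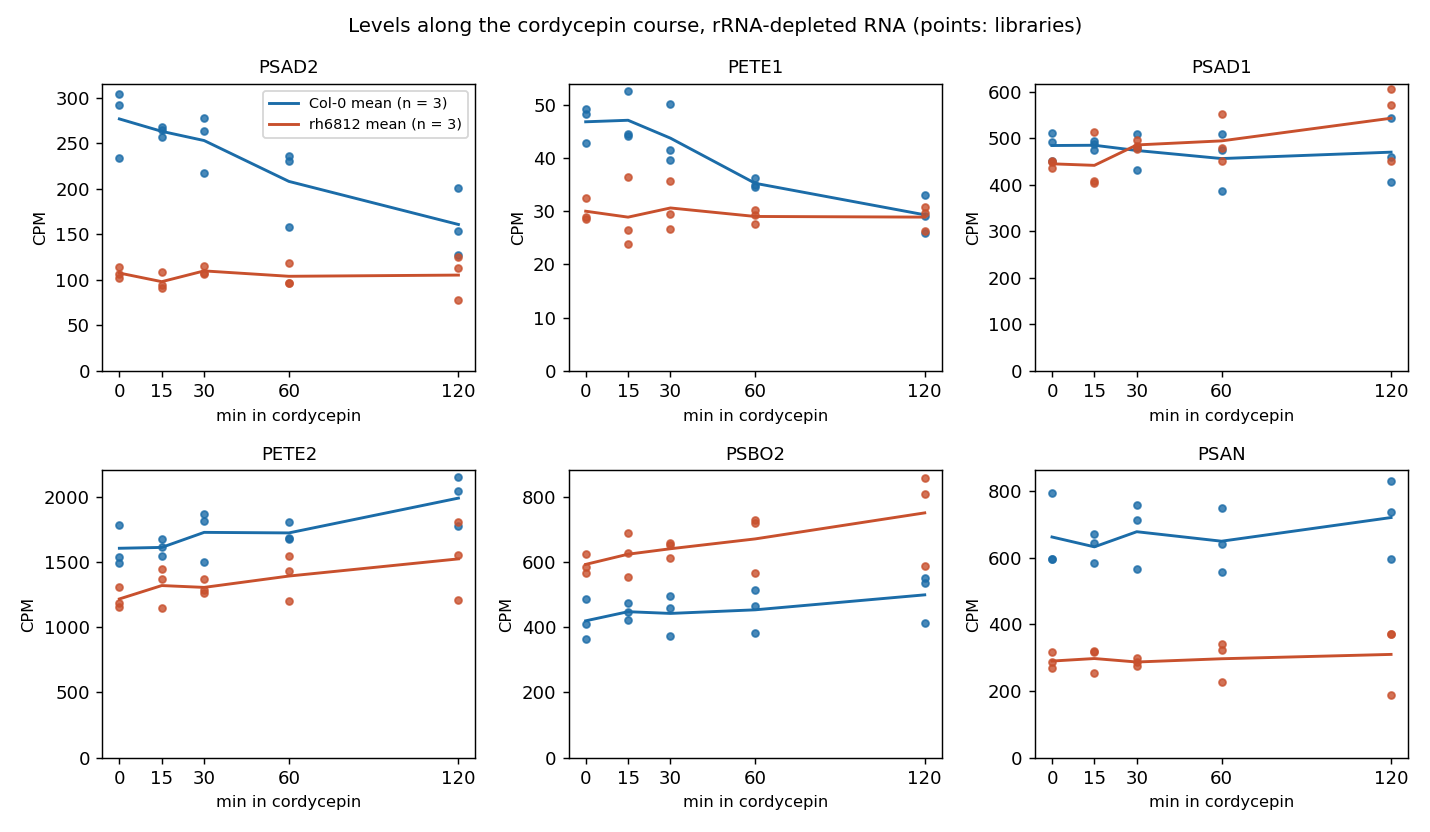
CPM against minutes in cordycepin for 6 of the genes in rRNA-depleted RNA; points are single libraries, lines join group means (n = 3), and each vertical axis starts at 0. PSAD2 and PETE1 decline in Col-0 toward the flat rh6812 level, whereas PSAD1 and PETE2 do not decline, PSBO2 stays higher and PSAN stays lower in rh6812.

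The chloroplast-encoded partners were lower in rh6812 in the rRNA-depleted set. Of 13 such genes for photosystem cores, cytochrome b6f and ATP synthase, 12 were lower at 0 min (median −0.90 on the log2 scale) and 13 at 120 min (median −1.12). Of all genes tested 24.0% were lower at 0 min and 26.8% at 120 min. psbB and psbC, for core antenna proteins of photosystem II, and petA, for cytochrome f, had the smallest adjusted p at 0 min, with log2 values of −1.27, −0.90 and −1.13. Chloroplast genes took 51.4% to 59.5% of the counts in Col-0 and 42.4% to 49.4% in rh6812. As a share of all counts the 30 members made up 1.70% to 2.00% in Col-0 and 1.57% to 1.95% in rh6812 over all times. These ranges overlap. As a share of nuclear counts alone the members made up 3.90% to 4.72% in Col-0 and 2.89% to 3.89% in rh6812.

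Other nuclear genes of the pathway did not move as one in total RNA, where 32.2% of all genes tested were higher and 32.4% lower. Of 21 antenna genes, for the chlorophyll-binding proteins around the photosystems, 17 were lower and 1 higher, with a median of −1.03. Of 20 genes of the NDH complex and cyclic electron flow 12 were higher and 4 lower (median 0.45), with NDHL, NDHM and NDHO at 0.96, 0.95 and 0.85. Among 13 other subunits and carriers 8 were higher and 4 lower, and the ferredoxin genes FD1 and FD3 rose with FD2, by 2.92 and 1.54. PTOX, the plastid terminal oxidase gene, rose by 0.95. Of 22 genes for photosystem assembly and repair 9 were higher and 5 lower, of 14 for chlorophyll synthesis 2 and 7, of 11 for thylakoid regulation 2 and 5, and of 5 rubisco genes 4 were higher. In rRNA-depleted RNA at 0 min these lists stood otherwise. There 1 gene of the NDH complex and cyclic electron flow was higher and 2 were lower (median 0.08), and of the rubisco genes 1 and 1. Of the antenna genes 0 were higher and 19 lower, of assembly and repair 2 and 9, of chlorophyll synthesis 2 and 8, and of thylakoid regulation 0 and 9. Among all genes tested at 0 min 24.4% were higher and 24.0% lower. These lists had been chosen with results of these libraries known.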

How the data were processed

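The deposited table holds whole-number read counts per locus, not normalised by the authors as far as the values show. Per the submitters' processing notes, Bowtie2 2.2.5, TopHat2 2.0.14 and the TAIR10 genome were used; counting program, strand use and gene models were not given in the sources used here. For 212 of 27667 loci the poly(A)+ columns held no value; no column was left out. Groups follow the labels. No pair of replicates was a duplicate (chi-square per degree of freedom 3.02 to 29.4). Counts were analysed in R 4.3.3 with edgeR 4.0.16 (TMM scaling, filterByExpr with a minimum count of 10 and minimum total of 15, robust quasi-likelihood test, two-sided, Benjamini-Hochberg over all genes tested, threshold 0.05), in 1 fit of the 12 poly(A)+ libraries, 1 of the 30 rRNA-depleted libraries with a mean per group, and 1 with a line against time per genotype. Standard errors are the log2 value over the square root of F and are approximate. Alternatives were DESeq2 1.42.0, other scalings, no filter, a replicate block, fewer times and left-out replicates. Same-numbered Col-0 libraries deviated together over time, with correlations of 0.140 to 0.432 in all 30 pairs, so the blocked counts stand beside the slopes. Those of rh6812 mostly did too, with correlations of −0.0095 to 0.430. The tests were tried on simulated data. Sequences and gene positions were read from TAIR10.1 by locus identifier with Biopython 1.88.

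All members may be named; per-library values are given for the 3 largest called changes in each direction and for paralogue pairs in the comparisons where they matter. The members, the lists and this rule were chosen with earlier results of these data known.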

Additional observations from a re-analysis of the deposited data

Results flagged for a closer look

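The slope along the cordycepin course differed between genotypes for PSAD2, by 0.41 log2 units per hour, and for PETE1, by 0.34, both tested as a difference of slopes. The genotype difference itself depended on the library type for 9 members, by the interaction test added after the data had been seen: LFNR2 moved up by 1.22 on the log2 scale from total poly(A)+ to rRNA-depleted RNA, and PSBY, PSBS, FD2, PSAG, PETE2, PSAF, PETC and PSAH1 moved by −0.76, −0.76, −0.75, −0.74, −0.64, −0.53, −0.48 and −0.45. By library type 13.8% of all genes tested were called higher and 16.9% lower, so such calls were not particular to the members. PSAF, PSAH1 and PETC lost the library type call in 9, 7 and 5 of 17 alternative settings. For the slope difference 9.29% of all genes tested were called higher and 4.56% lower, so these calls were not particular to the members either. The PSAD2 and PETE1 slope calls were each lost in 3 of 14 alternative settings. No cause of these differences was tested.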

How the results depend on the processing

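The total and polysome genotype counts and the polysome to total counts of members stayed within 1.5 times under the scalings, tests, filters, replicate block and left-out replicates tried (lower members 15 to 17 and 18 to 21 with a replicate left out). Counts that moved follow, and the causes were not tested. With library size alone, the members higher at 0 min were 4, those at 120 min 8 higher and 8 lower, the positive and negative Col-0 slopes 0 and 8, the positive rh6812 slopes 0, the higher slope differences 4 and the members lower by library type 5. Restricting the course to 60 min left 0 positive slopes in Col-0, 0 in rh6812 and 0 slope differences. The replicate block gave 19 positive Col-0 slopes, 13 positive rh6812 slopes and 1 lower ribosome association, and a block within genotype, added later, gave 19 and 14 and kept PSAD2 and PETE1; DESeq2 also gave 1 lower ribosome association. Same-numbered poly(A)+ libraries (r from −0.0143 to 0.177) and libraries of different genotypes (−0.173 to 0.209) did not deviate together throughout, so their numbers were not treated as pairs. Within a genotype, though, same-numbered total and polysome-bound libraries all had small positive correlations (0.0177 to 0.124), so they may be linked. Same-numbered rh6812 libraries over time had mostly positive correlations (−0.0095 to 0.430), so they may be linked as those of Col-0 were. With 1 replicate left out, members higher at 0 min ranged from 1 to 2 and lower from 11 to 18, higher at 120 min from 1 to 3, positive Col-0 slopes from 7 to 18, positive rh6812 slopes from 0 to 20, slope differences from 0 to 2, lower ribosome association from 0 to 1, and lower by library type from 5 to 9. With library size alone the member medians were −0.37 in total RNA, −0.19 at 0 min, −0.02 at 120 min and −0.02 by library type, where the medians of all genes were −0.18, 0.20, 0.42 and 0.13. Library size alone reversed PSBY (0.0050) and LFNR1 (0.079) at 120 min and the Col-0 slopes of PSAG (−0.025), PSAK (−0.025), PSBW (−0.028), PETE2 (−0.026) and LFNR1 (−0.012). Paralogue ratios that were called kept their direction under every pseudocount (0.5 and 5 CPM) and left-out replicate; with 1 replicate left out the poly(A)+ test cannot pass the threshold. Counts of calls say nothing of absolute RNA amounts, since scaling sets a typical transcript to 0, and 3 libraries a group limit the smaller differences.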
